A study of Mus musculus with 6 samples.

Results

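Bulk RNA sequencing of mouse prefrontal cortex was used to follow 10 genes of the presynaptic vesicle cycle: the vesicle proteins Sv2a, Sv2b, Sv2c, Syt1, Syn1 and Syn2, the fusion genes Stx1a, Snap25 and Vamp2, and the membrane fission gene Dnm1. They were chosen by gene name, with earlier results of these data known. All 10 were among the 21878 genes of the deposited tables and among the 14440 that passed the filter on low counts. Gls1_CamkIIaCre mice (n = 3) were mosaic heterozygotes that carried CamKIIα-Cre and a single floxed copy of the glutaminase gene named in their label. Control mice (n = 3) were littermates that carried CamKIIα-Cre with no floxed copy, although their sample labels call them WT. The CamKIIα promoter drives Cre in excitatory neurons of the forebrain, mosaic homozygotes were not viable, and the RNA came from all cells of the tissue, so that cells without Cre are part of every library. The comparison addresses what loss of that allele in those neurons does to gene expression in the cortex. Each library is from a separate mouse, whose age the labels do not give.

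Synaptic vesicles store transmitter and release it when calcium enters the terminal. Synapsins tether the vesicles in a reserve cluster, SV2 proteins are transporter-like glycoproteins of the vesicle membrane, and synaptotagmin-1 is the calcium sensor of fast release. Fusion is driven by SNARE proteins that zip together, with VAMP2 on the vesicle and syntaxin-1 and SNAP-25 on the plasma membrane. Dynamin-1 then pinches endocytic vesicles from the plasma membrane so that they can be filled again. SV2A is found at most synapses, SV2B is best known from glutamatergic terminals of the forebrain, and SV2C is enriched in the basal ganglia.

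The libraries held between 17987807 and 19330961 counts, and 1190 of 14440 genes (8.24%) differed between the groups at an adjusted p under 0.05 in edgeR's quasi-likelihood test, 571 of them (3.95%) higher and 619 (4.29%) lower in Gls1_CamkIIaCre. With upper-quartile factors that split was 429 higher and 749 lower, and with a gene length offset 448 higher and 367 lower. The markers of excitatory cortical neurons were present throughout, at a summed level of 5532 to 6102 CPM in Gls1_CamkIIaCre and 5377 to 5690 CPM in control (CPM, counts scaled to library size with TMM factors, over 10 genes led by Camk2a, Slc17a7 and Nrn1). Markers of striatal neurons, which lie outside the cortex, were present too and stood apart between the groups, at 375 to 424 CPM in Gls1_CamkIIaCre and 894 to 1451 CPM in control for 15 genes led by Pde10a, Ppp1r1b and Penk. None of those 15 genes was at 0 in any library, and whether striatal neurons supplied this RNA was not tested.

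Of the 10 vesicle-cycle genes, Stx1a and Dnm1 rose and Sv2c fell in Gls1_CamkIIaCre cortex, and the other 7 did not pass the test. The called share was thus 3 of 10, against 8.24% of all genes tested. The 3 libraries of each group did not overlap for Stx1a, Dnm1 and Syt1, which lay higher, and for Sv2c, which lay lower, against 26.7% of all genes tested in either direction (13.1% higher, 13.6% lower). The median log2 fold change of the 10 genes was 0.055, and that of all tested genes was -0.0024.

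**Figure D1:**
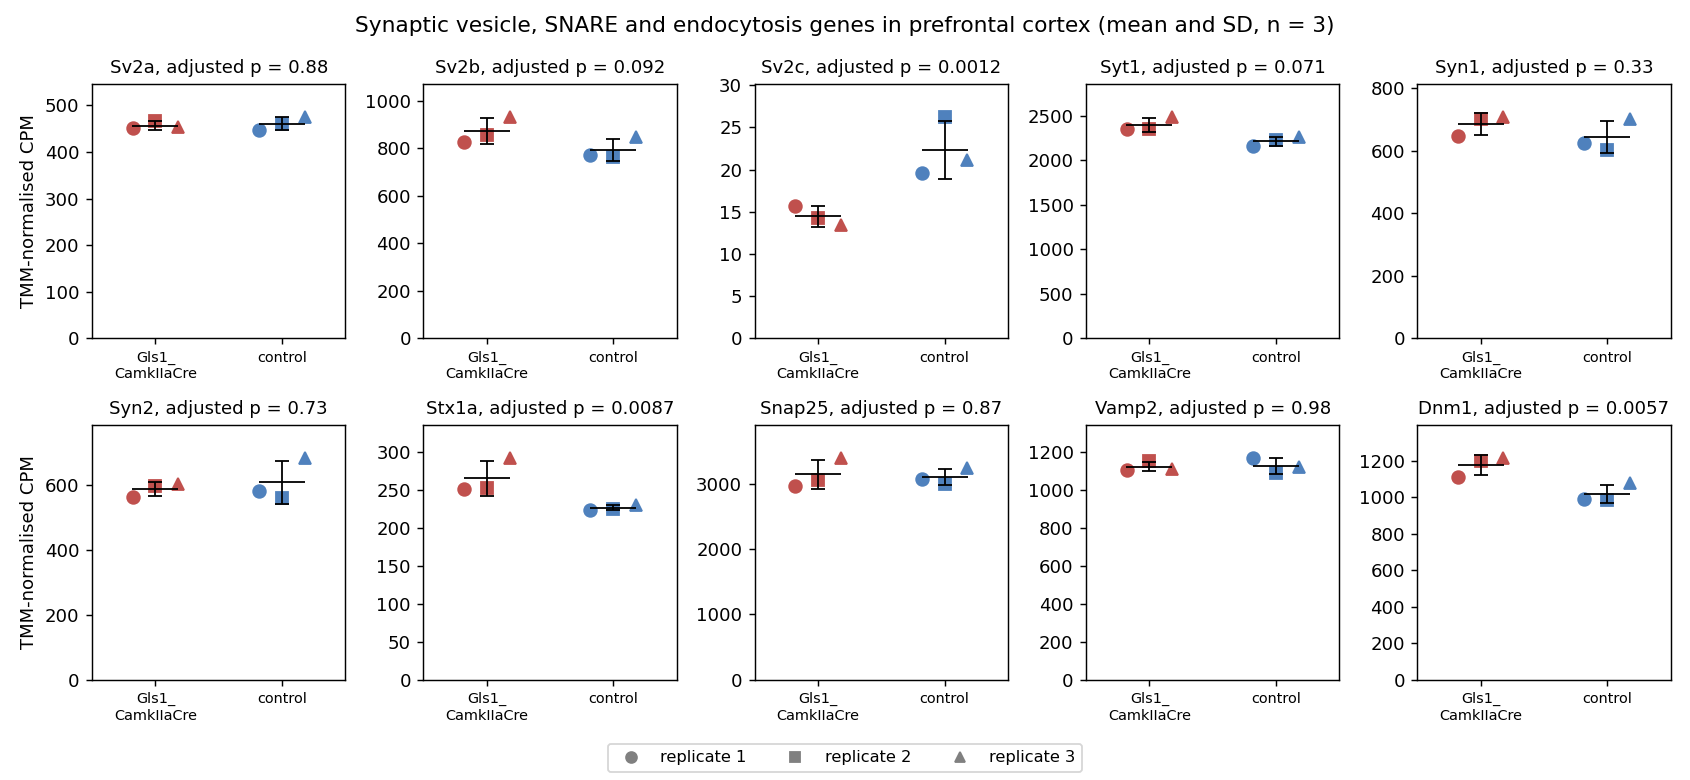
TMM-normalised CPM (vertical axes, each from 0) of the 10 genes in each library, with Gls1_CamkIIaCre left of control. Coloured points are single mice, marked by replicate number, and black lines are the mean and SD of 3 mice. Sv2c stands lower in Gls1_CamkIIaCre with no overlap, Stx1a, Dnm1 and Syt1 stand higher with no overlap, and the points of the other 6 genes overlap.

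The sequences around the transcription starts of Sv2c, Stx1a and Dnm1 are shown because these are the genes whose levels changed. The windows run from 250 bases before to 50 after the start and come from RefSeq (build GRCm38.p6), 5′ to 3′ on the gene's strand. Sv2c lies on the minus strand (window chr13:96132528-96132827), Stx1a on the plus strand (chr5:135023232-135023531) and Dnm1 on the minus strand (chr2:32353280-32353579). Capitals mark matches, on either strand, to GGGCGG (the GC box of Sp-family factors), TGACG (the core of the cAMP response element), CCAAT or GCATGCG (the core of the NRF1 site).
Sv2c: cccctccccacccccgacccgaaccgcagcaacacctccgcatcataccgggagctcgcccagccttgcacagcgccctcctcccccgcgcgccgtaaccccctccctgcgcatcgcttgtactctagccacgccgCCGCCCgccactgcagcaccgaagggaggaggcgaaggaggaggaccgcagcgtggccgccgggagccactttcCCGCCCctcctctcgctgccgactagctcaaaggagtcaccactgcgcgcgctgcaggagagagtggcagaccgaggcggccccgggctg
Stx1a: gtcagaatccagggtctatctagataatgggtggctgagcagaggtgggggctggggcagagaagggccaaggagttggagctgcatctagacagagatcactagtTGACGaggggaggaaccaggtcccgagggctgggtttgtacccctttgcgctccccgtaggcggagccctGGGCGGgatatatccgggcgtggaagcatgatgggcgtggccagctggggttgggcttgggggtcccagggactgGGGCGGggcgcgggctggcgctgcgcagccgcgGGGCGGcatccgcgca
Dnm1: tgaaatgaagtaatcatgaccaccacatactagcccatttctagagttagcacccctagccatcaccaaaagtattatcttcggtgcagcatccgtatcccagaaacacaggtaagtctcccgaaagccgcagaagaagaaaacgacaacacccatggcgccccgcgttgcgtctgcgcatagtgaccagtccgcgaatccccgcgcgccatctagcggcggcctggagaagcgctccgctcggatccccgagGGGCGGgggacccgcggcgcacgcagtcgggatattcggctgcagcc
The GC box occurred 2 times in the Sv2c window, 3 times in that of Stx1a and once in that of Dnm1, and it is held by 35.7% of all 32851 windows of 300 bases. Stx1a was the only window of the 3 with TGACG, which 20.8% of all windows hold. CCAAT (37.4% of all windows) and GCATGCG (3.58%) were in none of the 3, which says only that these letters are not in those windows. All 3 windows were rich in CpG: Sv2c had 32 CpG dinucleotides and 71.7% G and C, Stx1a had 19 and 66.3%, and Dnm1 had 28 and 59.0%, while the median window had 7 and 52.7%. This was not particular to the called genes: Syn1 had 33 and 68.3%, Sv2a 17 and 68%, and a window of Syn2 21 and 62.3%. The remaining windows, of Sv2b, Syt1 and Syn2, had 0 to 10 CpG. Across the group, 13 windows were found for 8 of the 10 genes, and 7 of the 13 held the GC box, 1 in each of these genes except Syn1. Syn1 alone held GCATGCG, with 2 matches that overlap, 1 on each strand, beside 2 matches to TGACG that overlap in the same way. In the 3 printed windows no matches overlap. Snap25 and Vamp2 had no entry.

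Sv2c, the SV2 isoform of basal ganglia, was the gene of the group with the largest change and the lowest level. Its level was 15.7, 14.2 and 13.4 CPM in the Gls1_CamkIIaCre libraries, against 19.7, 26.3 and 21.1 CPM in the control libraries. Every Gls1_CamkIIaCre library lay below every control library, and control 2 was the highest. Sv2c fell by 35.3% (log2 fold change -0.63 ± 0.104 SE, n = 3 per group, edgeR adjusted p = 0.00117), and its adjusted p stayed under 0.05 in each of the 16 alternatives computed, with log2 fold changes between -0.71 and -0.48. The value without control 2 was -0.49 (adjusted p = 0.00817). Fewer cells that express a gene and less RNA of it per cell cannot be told apart in bulk tissue.

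The striatal markers moved with Sv2c. Their summed level was 375, 391 and 424 CPM in Gls1_CamkIIaCre 1, 2 and 3, against 894, 1451 and 1031 CPM in control 1, 2 and 3. Of the 15 markers 13 were called lower and 0 higher, against 4.29% and 3.95% of all genes tested. The list was chosen with earlier results of these data known, so its count of calls was not independent of them. Among control libraries the order of Sv2c and of the striatal sum was the same, with control 2 highest and control 1 lowest, while among Gls1_CamkIIaCre libraries the orders were opposite. The median log2 fold change of the striatal markers was -1.60, more negative than that of Sv2c. Their part in the change of Sv2c was not tested.

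**Figure D2:**
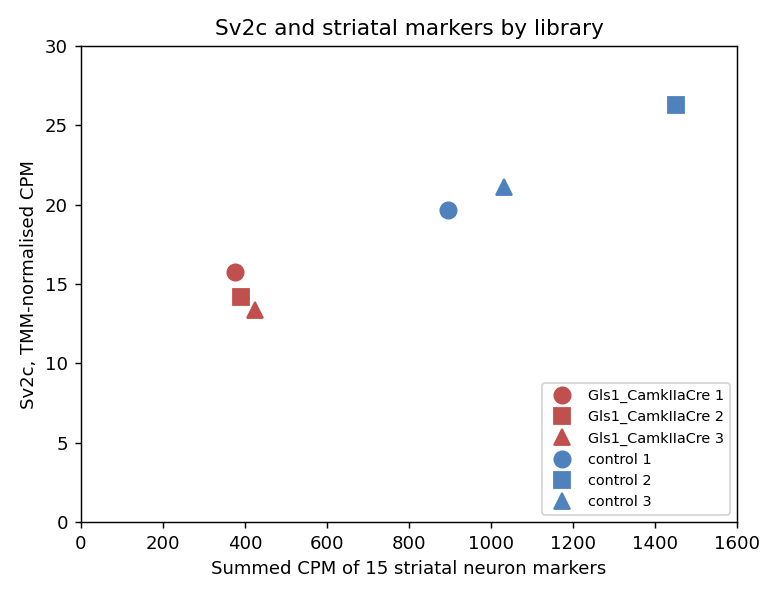
Sv2c level (vertical axis, TMM-normalised CPM) against the summed level of 15 striatal neuron markers (horizontal axis, CPM) in the 6 libraries, with each point a mouse. Control 2, at 1451 CPM of striatal markers, also has the highest Sv2c level, 26.3 CPM, and the Gls1_CamkIIaCre points lie between 375 and 424 CPM of markers and 13.4 and 15.7 CPM of Sv2c.

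Neither of the other SV2 genes was called. Sv2a, the isoform found at most synapses and the binding site of the antiseizure drug levetiracetam, had 451, 467 and 453 CPM in Gls1_CamkIIaCre and 447, 461 and 475 CPM in control (log2 fold change -0.014 ± 0.038 SE, edgeR adjusted p = 0.881). Sv2b, the forebrain isoform, had 829, 857 and 933 CPM in Gls1_CamkIIaCre, against 772, 765 and 848 CPM in control. The groups of Sv2b overlapped by a single library, control 3, and its log2 fold change of 0.14 ± 0.048 (SE) did not pass (edgeR adjusted p = 0.0924). Without control 3 it passed, at 0.18 (adjusted p = 0.0158), and it also passed with no filter on low counts (0.0458).

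Because FPKM, the authors' second table, is scaled for gene length, it lets genes be set side by side. In FPKM, Sv2c made up 1.66%, 1.43% and 1.33% of the summed SV2 transcripts in the Gls1_CamkIIaCre libraries and 2.10%, 2.80% and 2.10% in the control libraries. Sv2b made up 49.2 ± 1.59% in Gls1_CamkIIaCre and 45.9 ± 1.08% in control, and Sv2a 49.3 ± 1.45% in Gls1_CamkIIaCre and 51.7 ± 0.735% in control (SD, n = 3 each). For all 3 genes the shares did not overlap between the groups, with differences of -0.857 percentage points for Sv2c, 3.26 for Sv2b and -2.40 for Sv2a. The exact two-sided permutation p was 0.1 for each, the smallest that 3 against 3 libraries can give (0.171 after Benjamini-Hochberg adjustment over 12 shares), and the 3 shares of a family sum to a constant.

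Syt1, which encodes the calcium sensor synaptotagmin-1, was high in every library. It had 2353, 2357 and 2489 CPM in Gls1_CamkIIaCre and 2158, 2224 and 2257 CPM in control. The groups did not overlap, but the difference was small, at a log2 fold change of 0.12 ± 0.039 (SE), and did not pass by edgeR (adjusted p = 0.0705). It passed with DESeq2 (0.0272), limma voom (0.0439) and no filter on low counts (0.0457). Syt1 made up 96.9 ± 0.301% of the summed FPKM of Syt1 and Syt2 in Gls1_CamkIIaCre and 96.3 ± 0.162% in control (SD, n = 3 each, exact permutation p = 0.1, 0.171 adjusted), again without overlap.

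The synapsins Syn1 and Syn2 did not pass. Syn1 had 645, 701 and 708 CPM in Gls1_CamkIIaCre and 626, 602 and 700 CPM in control (log2 fold change 0.092 ± 0.053 SE, edgeR adjusted p = 0.330). Syn2 had 564, 597 and 604 CPM in Gls1_CamkIIaCre and 583, 561 and 685 CPM in control (-0.051 ± 0.069 SE, adjusted p = 0.731). Control 3 was the highest control library for both genes, and without it Syn1 passed, at 0.16 (adjusted p = 0.0306), and Syn2 had a positive log2 fold change of 0.041 (0.642). Within the family, Syn1 took 66.6 ± 0.278% of the summed FPKM in Gls1_CamkIIaCre and 64.8 ± 0.765% in control, and Syn2 took 32.6 ± 0.250% in Gls1_CamkIIaCre and 34.4 ± 0.807% in control (SD, n = 3 each, exact permutation p = 0.1 for both, 0.171 adjusted). Those shares did not overlap between the groups, whereas Syn3, at 0.814 ± 0.034% in Gls1_CamkIIaCre and 0.816 ± 0.043% in control, overlapped. With Syn3 so small, the shares of Syn1 and Syn2 were near complements. Their p-values are not separate results, though the adjustment counted both.

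Both synapsin genes hold an inhibitor of metalloproteinases on the opposite strand, Timp1 inside Syn1 (chrX:20870166-20874737) and Timp4 inside Syn2 (chr6:115244444-115252205). Without strand, reads from bases that both transcripts cover cannot be told apart. The overlaps are those of whole gene spans, and whether exons overlap was not examined. Timp4 had 14.3, 14.5 and 17.8 CPM in Gls1_CamkIIaCre and 15.6, 16.5 and 15.5 CPM in control (edgeR adjusted p = 0.887). Timp1 stood at 0.162 ± 0.092 CPM in Gls1_CamkIIaCre and 0.507 ± 0.033 CPM in control (SD, n = 3 each), and it did not pass the filter on low counts. Both levels are small beside those of their hosts. Araf overlaps the end of Syn1 by 11 bases and had 161 ± 5.11 CPM in Gls1_CamkIIaCre and 164 ± 3.60 CPM in control (SD, n = 3 each, adjusted p = 0.791), and Gm5136, inside Syt1, had no count in any Gls1_CamkIIaCre library and a level of at most 0.215 CPM in control.

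Stx1a, which encodes the plasma membrane SNARE syntaxin-1A, had the largest positive log2 fold change of the 10. Its level was 252, 253 and 293 CPM in Gls1_CamkIIaCre, against 224, 226 and 231 CPM in control. The groups did not overlap, and Gls1_CamkIIaCre 3 stood above the other mutants. Stx1a rose by 17.1% (log2 fold change 0.23 ± 0.050 SE, n = 3 per group, edgeR adjusted p = 0.00866). Without Gls1_CamkIIaCre 3 the log2 fold change was 0.15 (adjusted p = 0.0292). Stx1a passed in 14 of 16 alternatives, and not on log2(FPKM + 1) (0.13, adjusted p = 0.200) or log2(FPKM + 0.1) (0.13, 0.195). In FPKM the libraries still did not overlap, at 80.7, 80.2 and 93.0 in Gls1_CamkIIaCre and 77.0, 77.1 and 76.7 in control. FPKM per CPM, here with CPM from plain library totals, was set against its mean over the 6 libraries. This comparison was chosen after seeing the data. For Stx1a the ratio was 0.974, 0.965 and 0.982 in Gls1_CamkIIaCre and 1.029, 1.036 and 1.014 in control, so that the 2 deposited scales differed with the group. The part of this difference in the lost calls was not tested.

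Its SNARE partners did not pass. Snap25 was the most abundant gene of the group, with 2976, 3070 and 3399 CPM in Gls1_CamkIIaCre and 3081, 3000 and 3245 CPM in control (log2 fold change 0.018 ± 0.047 SE, edgeR adjusted p = 0.873). Vamp2 had 1107, 1155 and 1113 CPM in Gls1_CamkIIaCre and 1169, 1088 and 1123 CPM in control (-0.0026 ± 0.039 SE, adjusted p = 0.979). For both genes the groups overlapped in range. Vamp2 made up 92.4 ± 0.789% of the summed FPKM of Vamp1 and Vamp2 in Gls1_CamkIIaCre and 92.5 ± 0.417% in control, and Snap25 99.7 ± 0.045% of that of Snap25 and Snap23 in Gls1_CamkIIaCre and 99.7 ± 0.024% in control (SD, n = 3 each, exact permutation p = 0.8 for Vamp2 and 1 for Snap25, and 0.873 and 1 after adjustment). The next gene downstream of Vamp2 (chr11:69088528-69092381) is the clock gene Per1, which starts 2726 bases further on. Per1 rose there, with 78.7, 97.4 and 92.0 CPM in Gls1_CamkIIaCre and 64.1, 58.2 and 65.9 CPM in control (log2 fold change 0.51 ± 0.073 SE, edgeR adjusted p = 0.00147).

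Dnm1, the neuronal dynamin, had 1112, 1200 and 1214 CPM in Gls1_CamkIIaCre, against 989, 987 and 1076 CPM in control. The groups did not overlap, with Gls1_CamkIIaCre 1 lowest of the mutants and control 3 highest of the controls. Dnm1 rose by 15.5% (log2 fold change 0.21 ± 0.044 SE, n = 3 per group, edgeR adjusted p = 0.00566). It passed in 13 of 16 alternatives. It did not pass without Gls1_CamkIIaCre 2 (0.19, adjusted p = 0.0586), on log2(FPKM + 1) (0.12, 0.152) or on log2(FPKM + 0.1) (0.12, 0.150). In FPKM the groups overlapped at a single library of each, with 158, 168 and 173 in Gls1_CamkIIaCre and 152, 150 and 158 in control. As for Stx1a, FPKM per CPM was lower in every Gls1_CamkIIaCre library, at 0.971, 0.958 and 0.990 of the mean for Dnm1, than in control, at 1.038, 1.032 and 1.010. The uncalled genes Syn1, Syn2 and Snap25 separated in the same direction, and for the remaining genes of the group the ratio overlapped. Over all tested genes the median log2 fold change was -0.0024 on counts. That median was -0.023 on log2(FPKM + 1) and -0.031 on log2(FPKM + 0.1). The ratio was computed only for the genes of this group, so whether it sets them apart from other genes was not tested.

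The other dynamins stood lower and did not pass. Dnm3 had 220 ± 3.43 CPM in Gls1_CamkIIaCre and 217 ± 9.48 CPM in control (edgeR adjusted p = 0.812), and Dnm2, the dynamin of all cell types, 50.7 ± 0.920 CPM in Gls1_CamkIIaCre and 49.6 ± 0.864 CPM in control (0.785; SD, n = 3 each). Dnm1 held 87.1 ± 0.463% of the summed FPKM of the 3 dynamins in Gls1_CamkIIaCre and 86.2 ± 0.563% in control (SD, n = 3 each, exact permutation p = 0.1, 0.171 adjusted), a difference of 0.903 percentage points that came to 2.02 when CPM was used. The Dnm1 span (chr2:32308471-32353349) also holds the microRNA gene Mir199b, not analysed here.

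**Figure D3:**
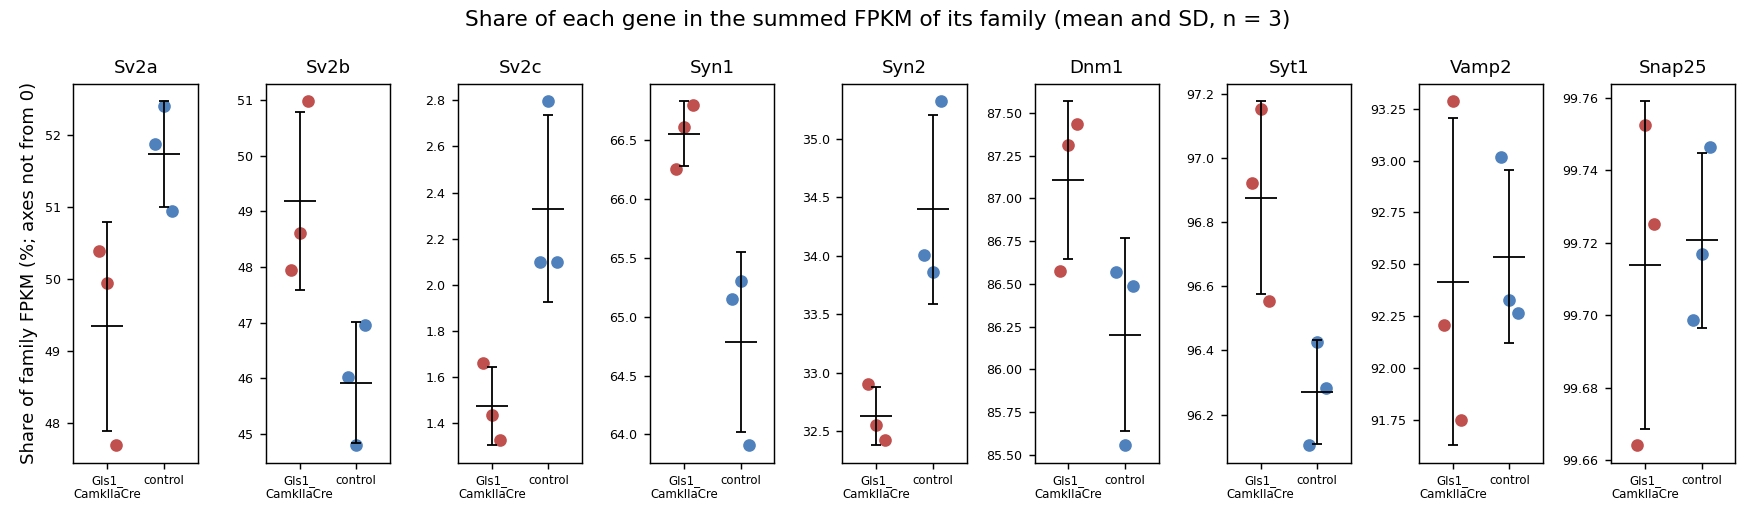
Share of each gene in the summed FPKM of its family (vertical axes in percent, each panel with its own range that does not start at 0), with Gls1_CamkIIaCre left of control. Points are single mice and black lines the mean and SD of 3 mice. Shares do not overlap between the groups for the 3 SV2 genes, Syn1, Syn2, Dnm1 and Syt1, and overlap for Vamp2 and Snap25. Shares of a family sum to a constant, so those of Syn1 and Syn2, or of the SV2 genes, are not separate results.

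Some markers of other cell types also differed between the groups, and outside the excitatory neurons the called markers were lower, as Sv2c was. Among all genes tested 3.95% were called higher and 4.29% lower, and these short lists were not tested as sets. Of 10 excitatory neuron markers 2 were called higher and 0 lower, of 9 interneuron markers 0 and 4, of 8 astrocyte markers 0 and 3, of 8 oligodendrocyte markers 0 and 3, of 8 microglia markers 0 and 2, and of 6 endothelial markers 0 and 1. The summed level of the microglia markers stood apart, at 392 to 426 CPM in Gls1_CamkIIaCre and 428 to 467 CPM in control. The sums of the other 5 lists overlapped between the groups, as for the oligodendrocyte markers, at 3037 to 3477 CPM in Gls1_CamkIIaCre and 3329 to 3944 CPM in control. The part of these marker lists in the changes of Sv2c, Stx1a and Dnm1 was not tested.

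**Figure D4:**
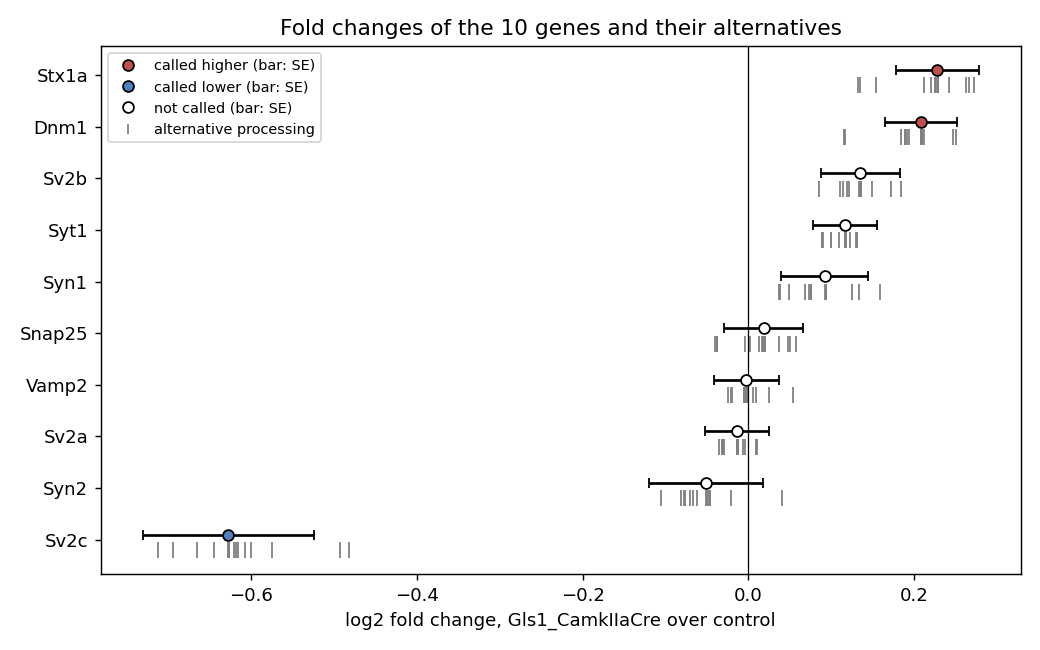
Log2 fold changes of the 10 genes, Gls1_CamkIIaCre over control (horizontal axis), as fitted by edgeR (circles with SE, filled where called) and under 16 alternatives (grey ticks). Sv2c lies between -0.71 and -0.48 in the alternatives, and Stx1a and Dnm1 lie to the right of 0 in all 16, while Snap25, Vamp2, Sv2a and Syn2 have ticks on both sides of 0.

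The 10 genes span a wide range of levels. Per length, Snap25 was highest at 730 ± 58.4 FPKM in Gls1_CamkIIaCre and 748 ± 24.6 FPKM in control, rank 10 of 14440 tested genes by mean FPKM, and Vamp2 followed at 482 ± 9.24 FPKM in Gls1_CamkIIaCre and 484 ± 14.7 FPKM in control (SD, n = 3 each). Syt1 stood at 267 to 300 FPKM over the 6 libraries and Syn1 at 158 to 178 FPKM. The range of Dnm1, 150 to 173 FPKM, overlapped that of Syn1, and the ranges of Sv2a (95.2 to 101 FPKM), Sv2b (83.5 to 102), Syn2 (81.3 to 98.6) and Stx1a (76.7 to 93.0) overlapped in turn. Sv2c, at 2.65 to 5.21 FPKM, ranked 8698 of 14440. All 10 together took between 1.03% and 1.10% of the counts of a Gls1_CamkIIaCre library and between 0.999% and 1.06% of those of a control library.

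Within a group the 10 genes also varied together by library. Gls1_CamkIIaCre 3 was the highest mutant library for 7 of the 10 genes and Gls1_CamkIIaCre 1 the lowest for 9, and control 3 was the highest control library for 8. Control 2 was the lowest for 6 and control 1 for 4. The summed excitatory neuron markers had a like order, at 5532, 5760 and 6102 CPM in Gls1_CamkIIaCre 1, 2 and 3. Control 3 was again the highest control library, at 5690 CPM, so the order was not particular to the 10 genes. The coefficient of variation of a group was lowest for Stx1a in control, at 1.62%, and highest for Sv2c in control, at 15.5%.

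Genes that act beside the 10 in the vesicle cycle were read from 5 lists, and in each most members did not pass. Among 19 vesicle proteins, 2 rose and 0 fell, with a median log2 fold change of 0.0040 against -0.0024 for all tested genes. Rab3c, a small GTPase of synaptic vesicles, had 667, 691 and 679 CPM in Gls1_CamkIIaCre and 545, 598 and 596 CPM in control (log2 fold change 0.23 ± 0.041 SE, adjusted p = 0.00184 by edgeR) and passed in all 16 alternatives. Prrt2, a presynaptic membrane protein mutated in paroxysmal movement disorders of humans, had 272, 268 and 308 CPM in Gls1_CamkIIaCre and 231, 242 and 251 CPM in control (0.23 ± 0.050, adjusted p = 0.00958), and passed in 14 of 16 alternatives, all but the 2 FPKM scales. The log2 fold changes of the 17 others did not pass, and these include Syp and Syn3.

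Of 17 tested synaptotagmin and Doc2 genes 2 rose and 2 fell, with a median log2 fold change of 0.044. Syt7, a slow calcium sensor, rose by 0.15 and Syt16 by 0.23 on the log2 scale (edgeR adjusted p = 0.0193 and 0.00659). Doc2b, a calcium sensor of spontaneous release, fell by 0.51 on the log2 scale, with 23.2 ± 2.13 CPM in Gls1_CamkIIaCre and 32.9 ± 4.09 CPM in control (SD, n = 3 each, adjusted p = 0.00194). Syt12 fell by 0.35, with 29.8, 30.7 and 30.2 CPM in Gls1_CamkIIaCre and 37.8, 38.9 and 38.5 CPM in control (0.00145). Doc2b and Syt12 were both highest in control 2, the library with the highest sum of striatal markers, though Syt12 differed little among controls. The other list genes called lower, Cplx3, Cltb and Atp6v1g1, were highest in control 3. A link to the striatal markers was not tested. Doc2b, Syt12 and Syt16 passed in all 16 alternatives, and Syt7 in 10. Syt8 was not tested.

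Of 23 tested SNAREs and SNARE regulators 2 rose and 1 fell, with a median log2 fold change of -0.0041. The tomosyn gene Stxbp5l (0.15, adjusted p = 0.0331) and the amisyn gene Stxbp6 (0.22, 0.0151), which both encode binders of syntaxin, rose by edgeR, and passed in 8 and 10 alternatives. Cplx3, a complexin that clamps and assists fusion, fell by 0.44, with 11.7, 12.1 and 14.0 CPM in Gls1_CamkIIaCre and 16.8, 16.9 and 17.8 CPM in control (0.00609), and passed in all 16. Vamp7 was not analysed here, and Stx4 and Stxbp3a are other names of the genes counted as Stx4a and Stxbp3.

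Of 37 clathrin and endocytosis genes 1 rose and 1 fell, with a median log2 fold change of 0.038. Itsn1, an endocytic scaffold that binds dynamin, had 189, 183 and 181 CPM in Gls1_CamkIIaCre and 165, 169 and 171 CPM in control (0.13 ± 0.040 SE, edgeR adjusted p = 0.0408). Cltb, a clathrin light chain, had 130, 124 and 128 CPM in Gls1_CamkIIaCre and 144, 138 and 147 CPM in control (-0.17 ± 0.042, 0.0169). Itsn1 passed in 8 of 16 alternatives and Cltb in 12. Of 17 proton pump genes, which acidify vesicles for transmitter uptake, 0 rose and 1 fell, with a median of -0.0094: Atp6v1g1, a subunit of the cytosolic sector, had 77.4 ± 1.59 CPM in Gls1_CamkIIaCre and 86.8 ± 0.771 CPM in control (SD, n = 3 each, adjusted p = 0.0273), and its call was lost whichever library was left out. Over the 5 lists together, 12 of 113 tested genes were called (10.6%), 7 higher and 5 lower, against 8.24% of all genes tested, with no test of the lists.

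Several of those list calls were lost when a library was left out, and calls over all genes then numbered 415 to 1098, against 1190 with all libraries. Leaving out Gls1_CamkIIaCre 2 ended the calls of Syt7, Stxbp5l, Stxbp6, Cltb and Itsn1. Those of Syt7, Stxbp5l, Stxbp6 and Itsn1 also ended without Gls1_CamkIIaCre 1, and that of Stxbp5l without Gls1_CamkIIaCre 3. Among controls, control 2 ended those of Syt7, Stxbp5l, Stxbp6 and Itsn1, control 1 those of Stxbp5l, Cltb and Itsn1, and control 3 those of Stxbp6 and Cltb. With a library left out, log2 fold changes kept their sign, between 0.13 and 0.17 for Syt7, 0.12 and 0.19 for Stxbp5l, 0.19 and 0.27 for Stxbp6, -0.19 and -0.15 for Cltb, 0.12 and 0.15 for Itsn1, and -0.18 and -0.15 for Atp6v1g1. The highest adjusted p of these fits was 0.149, for Itsn1.

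**Figure D5:**
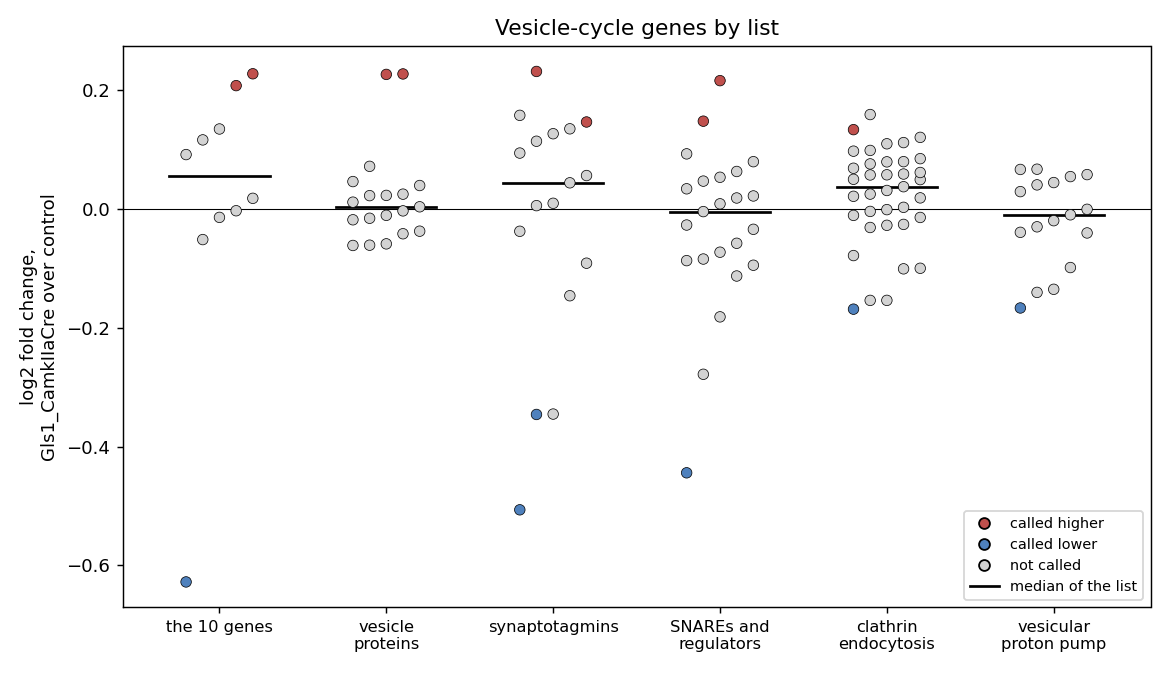
Log2 fold changes, Gls1_CamkIIaCre over control (vertical axis), of the 10 genes and of 5 lists of vesicle-cycle genes (horizontal axis). Each point is a tested gene, coloured where called, and black lines are list medians. Sv2c, at -0.63, is the lowest point, followed by Doc2b and Cplx3, and the highest is Syt16 at 0.23.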

How the data were processed

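Bulk RNA was sequenced from prefrontal cortex of 3 Gls1_CamkIIaCre and 3 control mice. Per the labels' protocols, TRIzol was used for total RNA and a SMARTer kit for the mRNA libraries. The submitters' processing notes name build GRCm38 (mm10). Aligner, counter, use of strand and the FPKM tool were not given in the sources used here. Counts, as whole numbers per gene, were deposited by the authors, with FPKM values for the same genes in a second table, which are not a fixed multiple of the counts within a gene. Counts of each gene were tested as deposited with edgeR 4.0.16 in R 4.3.3 (TMM, filterByExpr, robust quasi-likelihood fit, Benjamini-Hochberg over 14440 genes, threshold 0.05), and levels are TMM-normalised CPM. DESeq2 1.42.0 and limma 3.58.1 served as alternatives, beside other scaling factors, low-count filters, a replicate block, FPKM input, a gene length offset and leaving out each library, and the procedure was tested on simulated data. There it recovered slightly fewer of the genes with the largest change than the minimum first required, which was lowered after this was seen, and it missed most genes with the smallest change. FPKM shares of gene families were compared by exact permutation. Coordinates and promoter windows come from RefSeq (GRCm38.p6), strands of Snap25 and Vamp2 from GENCODE M21. The 10 genes and all lists were chosen with earlier results of these data known. Named genes were the 10, their family members, genes overlapping or next to them, and every called member of a list. Values of the targeted gene and of some family and list genes are not reported here, and the counts of the lists leave those genes out.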

Additional observations from a re-analysis of the deposited data

How the results depend on the processing

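Over 16 alternatives the calls of Sv2c held throughout. Stx1a and Dnm1 kept their direction throughout, and their 5 lost calls are given with those genes. Of 160 gene values, 136 kept direction and side of the threshold, 8 uncalled ones passed, and 11 values of uncalled genes changed sign. Snap25 had -0.038 on both FPKM scales, Vamp2 0.054 with the gene length offset and Sv2a 0.010 with that offset. With a library left out, log2 fold changes ran from -0.040 to 0.058 for Snap25 (negative without Gls1_CamkIIaCre 3 or control 2), from -0.025 to 0.025 for Vamp2 (positive without Gls1_CamkIIaCre 1, Gls1_CamkIIaCre 3 or control 1), from -0.035 to 0.0091 for Sv2a (positive without control 3) and from -0.11 to 0.041 for Syn2 (positive without control 3). Called genes overall numbered 672 on log2(FPKM + 1), of which 122 were higher, 733 with a pseudocount of 0.1, of which 126 were higher, and 415 to 1098 when a library was left out, lowest without Gls1_CamkIIaCre 2 and then control 2 (635). FPKM sums per library were lower in Gls1_CamkIIaCre (238924 to 243144) than in control (249602 to 252272). Of the 10 genes, 4 were called higher with no filter on low counts, 0 with either FPKM scale, and 1 to 4 when a library was left out, with 1 without Gls1_CamkIIaCre 2 and 4 without control 3. Sv2c was the only lower call under every alternative. Of 90 list counts 61 stayed within 1.5 times, and of 63 family shares 62 moved by less than the spread. The cause of these shifts was not tested.

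With the replicate number as a block, 1758 genes and 4 of the 10 higher were called, adding Sv2b (adjusted p = 0.00444) and Syt1 (0.0120). The numbers were not shown to pair the mice: deviations of same-numbered libraries correlated at 0.16, -0.048 and 0.20, and Gls1_CamkIIaCre 2 correlated best with control 1 (0.093).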
